A study of Mus musculus with 12 samples.

Results

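Of 6 spontaneous hepatocellular carcinomas (HCC), malignant tumours of hepatocytes, 3 carried little RNA of Glul, the gene of glutamine synthetase. They were compared with 6 normal livers across all genes. Both tissues came from untreated B6C3F1 mice, a hybrid strain used in long rodent bioassays, at an age of 2 years. Each sample was 1 single-colour Affymetrix array of total RNA, and the p-values measure the spread between these samples. The labels name no mutation, sex or tumour stage, and bulk tissue cannot separate fewer cells of a type from less RNA per cell. The members were chosen by their Glul level: the brightest Glul probe set had to lie below 13.3 on the scale log2(intensity + 16) as deposited. The values that chose them were 11.74 for HCC 2, 11.38 for HCC 3 and 11.99 for HCC 5. The carcinomas outside the threshold, HCC 1, 4 and 6, had 15.12, 15.18 and 14.60, and the normal liver nearest to it, normal liver 4, had 13.45. These values are a description, and no result rests on them.

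In the liver lobule, Wnt ligands from the central vein keep beta-catenin active in the hepatocytes around it. Those pericentral hepatocytes make glutamine from ammonia through Glul and hold most of the drug-metabolising cytochrome P450 enzymes, while periportal hepatocytes run the urea cycle and gluconeogenesis. Liver tumours with activated beta-catenin are known for strong Glul staining, and tumours driven through the Ras and MAP kinase route are known to lack it. No mutation was measured here.

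The 12 arrays were alike in depth as the signals show it. Between 14.2% and 18.1% of probe sets were under 16 intensity units, and the ratio of 3' to 5' Gapdh signal was 0.708 to 0.786 in the Glul-low carcinomas against 0.703 to 0.807 in normal liver. All levels are quantile-normalized log2(intensity + 16), on which the floor is 4, given for the Glul-low carcinomas in the order HCC 2, 3 and 5 and for the other carcinomas in the order HCC 1, 4 and 6. Y-linked genes gave signal in all 3 Glul-low carcinomas, in 1 of 3 other carcinomas (HCC 6) and in 4 of 6 normal livers, and the part of this imbalance in the results was not tested beyond fits restricted to arrays with that signal. The tissue label matched its defining markers: the 11 measured hepatocyte markers had a median difference of 0.03, none passed the test in either direction, and Alb, the gene of albumin, read 15.43, 15.51 and 15.39 against 15.29 to 15.57 (median 15.44) in normal liver.

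Of 18193 genes tested with limma, 774 were higher (4.25%) and 797 lower (4.38%) in the 3 Glul-low carcinomas than in the 6 normal livers at an adjusted p under 0.05, which is 1571 genes or 8.64% in all. Of these, 494 rose and 460 fell by at least 1 log2 unit. Without HCC 3 the counts were 468 higher and 478 lower, and among arrays with Y-linked signal they were 499 and 492. The other 3 carcinomas, set against the same 6 normal livers, gave 1274 genes higher (7%) and 1543 lower (8.48%). Both comparisons share the normal livers, so their values are given side by side and their overlap is not reported as a result. In 1381 genes (7.59%) every Glul-low carcinoma exceeded the highest normal liver, and in 1538 (8.45%) every one was under the lowest. The class lay above all 3 other carcinomas in 1617 genes (8.89%) and below them in 1392 (7.65%). The carcinomas were split by a measured level, so that last contrast is described and has no p.

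The question was what this class alone gained and lost. To describe it, genes were taken that passed the test against normal liver, had all 3 members beyond all 6 normal livers and were brighter than the median gene in at least 1 group: 661 higher and 671 lower. In 114 of the former the members also lay above every other carcinoma, and in 110 of the latter below every other carcinoma. HCC 6 limits both counts: without it they were 228 and 214. HCC 6 was also the only carcinoma outside the class with Y-linked signal, which all 3 members had. Without it, the other carcinomas left were HCC 1 and 4, which lacked that signal. The sex chromosome gene Xist read 11.79 and 12.03 in HCC 1 and 4, against 5.59 to 7.56 in the members and HCC 6. The part of this difference in the higher counts was not tested.

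**Figure D1:**
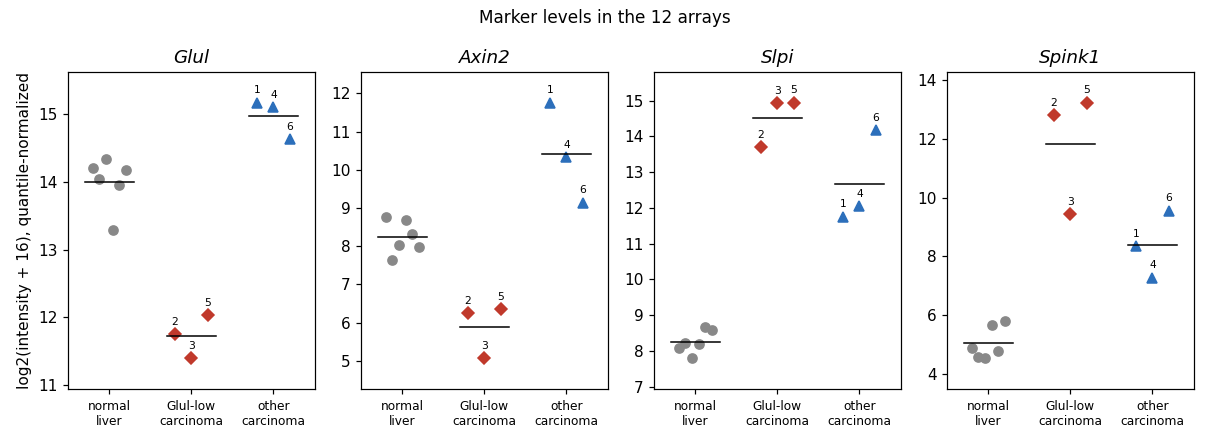
Levels of Glul, Axin2, Slpi and Spink1 in each of 12 arrays, as quantile-normalized log2(intensity + 16); points are arrays, horizontal lines are group means and the small numbers are HCC numbers. Glul and Axin2 of HCC 2, 3 and 5 lie below all 9 other arrays, while Slpi and Spink1 are above normal liver in all 6 carcinomas and overlap between the tumour classes.

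Of the marker genes that define the class, Glul chose it and Axin2 moved with it. Axin2, which encodes a scaffold that degrades beta-catenin and is itself induced by Wnt signalling, read 6.24, 5.06 and 6.36 in the Glul-low carcinomas, 11.76, 10.34 and 9.14 in the other carcinomas and 7.65 to 8.76 (median 8.18) in normal liver. On this probe set, the brighter of its 2, the 3 groups did not overlap. The dimmer one differed by -0.14 between the class and normal liver (adjusted p = 0.892) and was not called. Against normal liver Axin2 fell by 2.35 ± 0.34 (SE; adjusted p = 0.00448) in the Glul-low class and differed by 2.17 (adjusted p = 0.0179) in the other carcinomas. Slpi, a secreted inhibitor of leukocyte proteases, read 13.70, 14.94 and 14.95 in the class against 7.79 to 8.68 (median 8.21) in normal liver and rose by 6.27 ± 0.31 (SE; adjusted p = 1.76e-05). In the other carcinomas it read 11.76, 12.05 and 14.19, so HCC 6 lay within the range of the class and HCC 1 and 4 below it. Spink1, a trypsin inhibitor made by the pancreas and by some tumours, read 12.81, 9.44 and 13.22, 8.34, 7.28 and 9.55 and 4.54 to 5.80 (median 4.84) in the same order of groups. It rose by 6.78 ± 0.75 (SE; adjusted p = 0.00131) in the class and by 3.35 ± 0.48 (SE; adjusted p = 0.00221) in the other carcinomas, and HCC 6 lay just above HCC 3. Slpi and Spink1 therefore overlapped between the tumour classes through HCC 6 alone.

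Oat, the gene of ornithine aminotransferase, a pericentral enzyme that feeds glutamate to glutamine synthetase, had the widest gap below all other arrays. It read 9.87, 10.36 and 11.18 in the Glul-low carcinomas, 15.27, 15.15 and 15.10 in the other carcinomas and 13.94 to 14.48 (median 14.26) in normal liver. The highest member lay 2.76 log2 units under the lowest of the 9 other arrays, and Oat fell by 3.78 ± 0.26 (SE; adjusted p = 0.000103) against normal liver. Cyp1a2, the P450 that oxidises caffeine and aromatic amines, read 10.27, 9.73 and 11.56 against 13.62 to 14.32 (median 14.11) in normal liver and 15.35, 14.59 and 13.95 in the other carcinomas, a gap of 2.06. It fell by 3.53 ± 0.35 (SE; adjusted p = 0.000752), whereas the other carcinomas differed from normal liver by 0.58 (adjusted p = 0.21).

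Ecm1, which encodes a secreted matrix protein, read 9.51, 9.91 and 9.81 in the class, 12.22, 11.87 and 12.63 in the other carcinomas and 11.73 to 12.29 (median 11.85) in normal liver, and fell by 2.20 ± 0.18 (SE; adjusted p = 0.000324). Lhpp, a histidine phosphatase, moved apart in both directions: 7.48, 8.06 and 8.43 in the class, 10.24 to 10.64 (median 10.38) in normal liver and 12.50, 12.83 and 11.81 in the other carcinomas. It fell by 2.41 ± 0.21 (SE; adjusted p = 0.000393) in the class and rose by 1.98 ± 0.22 (SE; adjusted p = 0.000587) in the others. Tbx3, a T-box transcription factor and Wnt target, read 6.67, 6.34 and 7.22 against 8.73 to 9.87 (median 9.05) in normal liver and fell by 2.40 ± 0.28 (SE; adjusted p = 0.00156). Of its 4 other probe sets the brightest fell by 3.22 (adjusted p = 0.00166), and the others differed by -0.81, -0.45 and 0.28 and were not called. Pon1, the paraoxonase carried by high-density lipoprotein, fell by 3.27 ± 0.19 (SE; adjusted p = 5.49e-05), with 12.51, 11.59 and 11.92 in the class, 15.16 to 15.39 (median 15.27) in normal liver and 15.23, 15.25 and 14.01 in the other carcinomas. Acot1, an acyl-CoA thioesterase of the cytosol, fell by 3.20 ± 0.35 (SE; adjusted p = 0.0013), from 8.95 to 10.39 (median 9.95) in normal liver to 6.02, 6.52 and 7.26, and the other carcinomas read 11.02, 10.60 and 8.55. In each of these genes the 3 members were the 3 lowest of the 12 arrays, which the choice of the genes by their gap fixes.

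**Figure D2:**
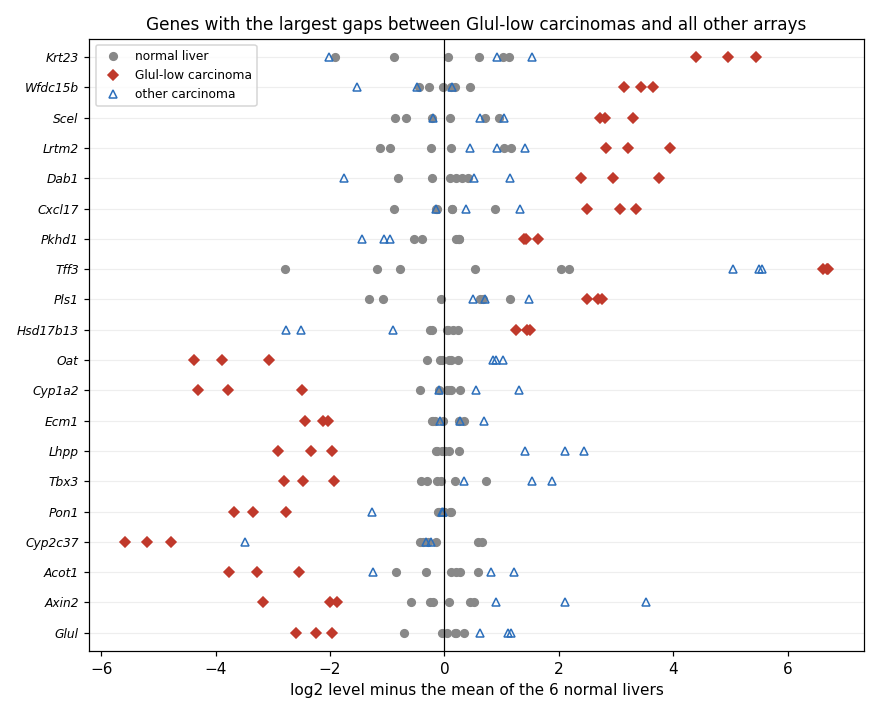
The 10 genes with the widest gap above and the 10 with the widest gap below all 9 other arrays, as log2 level minus the mean of the 6 normal livers; diamonds are Glul-low carcinomas, open triangles other carcinomas and grey points normal livers. No diamond overlaps any other symbol in its row, which the choice of these genes fixes, and Tff3 is the one of the 10 gained genes in which the other carcinomas also lie above all 6 normal livers.

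The lost genes were searched for the word bound by TCF factors, the DNA-binding partners of beta-catenin, because several are known Wnt targets. RefSeq promoter windows (GRCm38.p6) held the 250 bases before the annotated start of 86 of the 110 genes that were lowest in the class. The letters CTTTGAT or CTTTGAA, on either strand, were found for 18 of these 86 genes (20.9%). A gene counted once if any of its windows held the letters, and the number of windows per gene was not compared between sets. The same held for 7.29% of all 14452 measured genes with a window. It held for 4 of 92 genes (4.35%) that were highest in the class and for 46 of 554 (8.3%) of the other genes lower than in normal liver. A different word, TGANTCA of the AP-1 factors, was found for 5.81% of the same 86 genes against 6.7% of all measured genes. The median GC content was 57.6% in the windows of the 86 genes and 57.6% in those of all measured genes. The class was chosen by Glul, itself on the list of Wnt targets. Glul, Axin2, Lgr5 and Notum are among the 110 genes but not among the 18 with the word. Cyp1a2, Lect2, Cyp2e1 and Slc1a2, also Wnt targets on that list, are among the 18. The share of 20.9% is therefore in part bound to that choice and is described without weight. A match is a string of letters, not a site shown to be bound. Cyp2c29 and Cyp2c39, 2 of the 18, are near copies of each other. The sequences shown are the 250 bases before the start, 5' to 3' on the gene's strand, of Oat, which has the widest gap and no such word here, and of the 4 genes with the widest gaps among those with a word, which is in capitals.
Oat: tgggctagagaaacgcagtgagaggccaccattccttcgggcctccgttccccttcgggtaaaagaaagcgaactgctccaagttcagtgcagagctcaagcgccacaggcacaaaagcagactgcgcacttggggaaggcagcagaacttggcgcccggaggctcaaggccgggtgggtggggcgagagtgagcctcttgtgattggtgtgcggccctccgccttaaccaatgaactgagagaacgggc
Cyp1a2: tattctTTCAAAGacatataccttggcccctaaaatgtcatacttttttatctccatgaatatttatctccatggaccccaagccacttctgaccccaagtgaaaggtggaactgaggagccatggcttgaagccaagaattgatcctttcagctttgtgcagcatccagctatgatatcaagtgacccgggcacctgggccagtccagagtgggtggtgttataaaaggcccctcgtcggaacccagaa
Acot1: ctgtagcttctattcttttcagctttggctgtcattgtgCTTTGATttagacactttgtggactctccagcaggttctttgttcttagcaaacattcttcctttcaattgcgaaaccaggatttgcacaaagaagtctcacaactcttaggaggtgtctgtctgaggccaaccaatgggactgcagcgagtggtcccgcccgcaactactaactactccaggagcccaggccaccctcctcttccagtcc
Lect2: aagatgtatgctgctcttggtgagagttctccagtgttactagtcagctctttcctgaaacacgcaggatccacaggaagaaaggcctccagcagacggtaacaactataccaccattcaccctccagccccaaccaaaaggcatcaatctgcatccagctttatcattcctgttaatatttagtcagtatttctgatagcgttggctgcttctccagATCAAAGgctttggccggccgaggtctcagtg
Cyp2e1: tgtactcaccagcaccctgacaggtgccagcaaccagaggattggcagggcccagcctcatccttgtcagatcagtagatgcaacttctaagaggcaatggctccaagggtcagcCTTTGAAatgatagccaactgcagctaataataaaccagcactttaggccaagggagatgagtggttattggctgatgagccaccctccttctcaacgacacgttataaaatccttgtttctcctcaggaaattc

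The windows lie at chr7:132576399-132576648 (minus strand) for Oat, chr9:57683656-57683905 (minus strand) for Cyp1a2, chr12:84009252-84009501 (plus strand) for Acot1, chr13:56548539-56548788 (minus strand) for Lect2 and chr7:140763569-140763818 (plus strand) for Cyp2e1. The word began 244 bases before the start in Cyp1a2, 211 in Acot1, 32 in Lect2 and 135 in Cyp2e1. Lect2, a secreted protein and known beta-catenin target, read 11.26, 10.27 and 11.50 in the class, 14.88, 14.63 and 13.71 in the other carcinomas and 12.50 to 12.99 (median 12.89) in normal liver. Cyp2e1, the ethanol-oxidising P450 of pericentral hepatocytes, read 14.19, 13.06 and 14.44, 15.71, 15.62 and 15.23 and 15.47 to 15.71 (median 15.59). Both had all 3 members below all 9 other arrays, which their choice from the genes lowest in the class fixes. Lect2 fell by 1.81 ± 0.26 (SE; adjusted p = 0.00437) and Cyp2e1 fell by 1.71 ± 0.27 (SE; adjusted p = 0.00609). Lect2 and Cyp2e1 were named after their values were seen, as were Ahr, Cldn1, Col4a1, Cpt2, Cyp27a1, Dcn, Dusp6, Ehhadh, Fgfr2, Gpc3, Krt18, Mcm6, Nr1h4, Ocln, Otc, Pdk4, Slco1b2, Spry2 and all genes given only by their levels.

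Wnt targets as a list follow from the way the class was chosen and are described without weight. Of 24 measured targets, 14 were lower (against 4.38% of all genes) and 0 higher in the Glul-low class. The median difference was -1.38 against -0.04 over all genes. In the other carcinomas 16 were higher (against 7% of all genes) and 0 lower, with a median of 1.51. The list mean was -1.48, -1.30 and -0.98 relative to normal liver in HCC 2, 3 and 5, and 2.07, 1.57 and 0.56 in HCC 1, 4 and 6. HCC 6 thus had the smallest excess among the carcinomas outside the class. Lgr5, the R-spondin receptor of pericentral cells, read 6.70, 7.15 and 7.62 in the class against 8.27 to 9.47 (median 8.74) in normal liver and 11.67, 10.53 and 9.51 in the other carcinomas. Notum, a secreted Wnt deacylase, read 7.70, 8.55 and 8.18, 9.12 to 9.94 (median 9.46) and 12.22, 10.82 and 9.60 in the same order. Not all targets were below normal liver. Lef1, a partner of beta-catenin that Wnt induces, read 4.71, 6.54 and 5.30 against 4.70 to 6.30, and Sp5, a zinc finger factor, read 5.66, 7.10 and 5.42 against 4.95 to 7.22. Slc1a2, a glutamate transporter, read 4.91, 7.25 and 8.40 in the class against 13.77, 13.06 and 10.73 in the other carcinomas. It fell by 2.64 ± 0.64 (SE; adjusted p = 0.0345) against normal liver, but lost its call when any 1 normal liver or HCC 3 was left out (adjusted p up to 0.0794) and among arrays with Y-linked signal (adjusted p = 0.104). Of its 4 other probe sets, one fell by 4.04 (adjusted p = 0.000702) and one by 2.37 (adjusted p = 0.0159), and the dim ones differed by -0.01 and 0.28 and were not called.

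**Figure D3:**
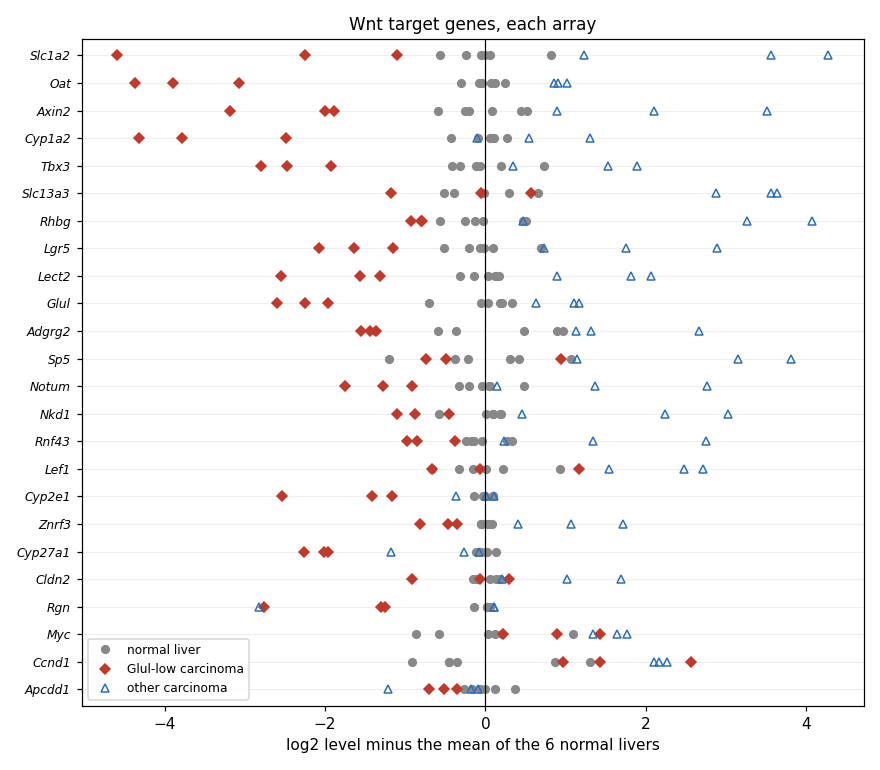
Each of 24 measured Wnt target genes in each array, as log2 level minus the mean of the 6 normal livers; genes are ordered by the difference between tumour classes. In 19 of 24 genes the 3 Glul-low carcinomas (diamonds) lie below all 3 other carcinomas (open triangles); Ccnd1 and Myc are among those that overlap.

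Arg1, Hal, Kynu and Otc, enzymes of the urea cycle and of amino acid breakdown, lay above all other carcinomas in every member. Of the 30 measured genes of these pathways, 6 were lower (against 4.38% of all genes) and 0 higher in the Glul-low class, with a median difference of -0.47, and 21 were lower (against 8.48% of all genes) and 1 higher in the other carcinomas, with a median of -1.41. The difference between the 2 counts was not tested. The members lay above all other carcinomas in 15 of the 30, against 8.89% of all genes, and below them in 1. That one was Oat. Arg1, Cps1 and Hal are also on the list of periportal genes and Oat on that of Wnt targets. These counts are therefore in part bound to the choice of the class by Glul and are described without weight. Otc, the urea cycle enzyme that makes citrulline, read 13.89, 13.85 and 13.88 against 14.36 to 14.65 (median 14.47) in normal liver and 12.38, 12.53 and 12.31 in the other carcinomas, so it fell by 0.62 ± 0.13 (SE; adjusted p = 0.0183) in the class and by 2.09 ± 0.14 (SE; adjusted p = 5.42e-05) in the others. Without HCC 3 the adjusted p of the class was 0.0551. Arg1, the arginase that releases urea, read 14.98, 15.28 and 15.26 in the class against 15.09 to 15.23 (median 15.18) in normal liver, a difference of 0.00 ± 0.13 (SE; adjusted p = 0.995), and 12.56, 13.04 and 14.41 in the other carcinomas. Cps1, the entry enzyme of the cycle, read 14.72, 15.35 and 15.37 against 15.22 to 15.34 (median 15.31) in normal liver and 12.65, 13.66 and 14.84 in the other carcinomas. Hal, which breaks down histidine, read 12.83, 13.06 and 13.99 in the class, 13.01 to 13.54 (median 13.11) in normal liver and 8.79, 8.37 and 10.82 in the other carcinomas. Kynu, an enzyme of tryptophan breakdown, read 11.25, 12.01 and 11.39, 11.73 to 12.44 (median 12.17) and 8.42, 9.21 and 9.77. In these 5 genes every Glul-low carcinoma was above every other carcinoma except in Cps1, where HCC 6 lay above HCC 2.

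The 6 genes that fell in the class were Oat, Otc, Prodh, Asl, Haao and Hpd. Prodh, proline dehydrogenase, read 8.16, 8.80 and 10.26 against 11.72 to 12.02 (median 11.84) in normal liver and fell by 2.78 ± 0.37 (SE; adjusted p = 0.00305), while the other carcinomas read 11.92, 11.36 and 9.64 and overlapped the class. Asl, argininosuccinate lyase, fell by 1.31 ± 0.16 (SE; adjusted p = 0.00201) in the class and by 1.55 ± 0.16 (SE; adjusted p = 0.000407) in the others, with 12.36, 12.10 and 12.39 and 12.03, 11.94 and 12.14 against 13.31 to 13.81 (median 13.65) in normal liver.

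**Figure D4:**
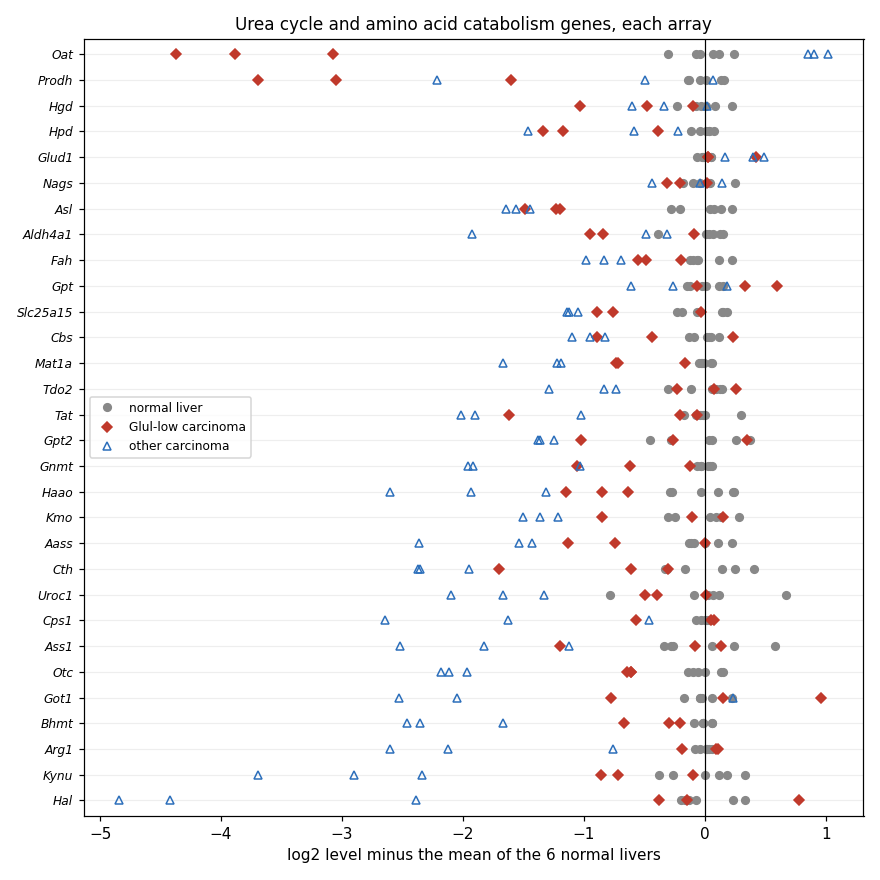
Each of 30 measured genes of the urea cycle and amino acid catabolism in each array, as log2 level minus the mean of the 6 normal livers, ordered by the difference between tumour classes. Hal, Kynu, Arg1 and Bhmt at the bottom have the Glul-low carcinomas (diamonds) within 1 log2 unit of 0 and the other carcinomas (open triangles) to their left, and Oat at the top has them reversed.

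Periportal genes, like the Wnt targets, are bound to the way the class was chosen. Of 17 measured, 4 were higher (against 4.25% of all genes) and 2 lower (against 4.38%) in the class (median 0.00). In the other carcinomas 2 were higher (against 7%) and 12 lower (against 8.48%), with a median of -1.83. The list mean was -2.64 and -2.39 relative to normal liver in HCC 1 and 4 but -0.70 in HCC 6, against -0.01, 0.21 and 0.43 in the class. Hsd17b13, an enzyme of the lipid droplet surface, went to opposite sides: it read 14.32, 14.36 and 14.12 in the class, 12.62 to 13.10 (median 12.92) in normal liver and 10.36, 10.11 and 11.98 in the other carcinomas. It rose by 1.39 ± 0.16 (SE; adjusted p = 0.00136) in the class and fell by 2.06 ± 0.37 (SE; adjusted p = 0.00592) in the others. The dimmer probe set of Hsd17b13 differed by 0.22 in the class (adjusted p = 0.528) and was not called. Aldh1b1, a mitochondrial aldehyde dehydrogenase, read 12.67, 12.88 and 12.88, 11.24 to 12.14 (median 11.38) and 8.36, 7.63 and 9.88 in the same order. Cyp2f2, a periportal P450, read 11.94, 12.06 and 13.14 against 14.22 to 15.03 (median 14.99) in normal liver and fell by 2.44 ± 0.29 (SE; adjusted p = 0.00182), and the other carcinomas read 7.37, 6.25 and 11.17. With the spread shared over all 3 groups its adjusted p was 0.0994.

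The drug-metabolising P450 enzymes and their regulators were the list with the most falls in the class. Of 28 measured genes, 17 were lower (against 4.38% of all genes) and 0 higher in the class (median -1.73). In the other carcinomas 10 were lower (against 8.48%) and 0 higher (median -1.03). The members lay below all other carcinomas in 11 genes (against 7.65% of all genes) and above them in 6 (against 8.89%). Cyp1a2 and Cyp2e1 are also on the list of Wnt targets and Cyp2f2 on that of periportal genes. These counts are therefore in part bound to the choice of the class by Glul. The Cyp2c family carried the largest falls. Cyp2c37 read 8.76, 9.57 and 9.15 against 13.91 to 15.01 (median 14.13) in normal liver and fell by 5.19 ± 0.31 (SE; adjusted p = 5.49e-05); HCC 1 and 4 were at normal levels and HCC 6 was not (14.12, 14.03 and 10.87). Cyp2c50 read 10.74, 10.76 and 11.14 against 15.15 to 15.28 (median 15.24) and fell by 4.35 ± 0.13 (SE; adjusted p = 1.19e-06), and HCC 6 was lower still among 13.88, 14.45 and 10.38. Cyp2c54 read 7.55, 9.06 and 8.07 against 13.20 to 14.58 (median 14.23) and fell by 5.84 ± 0.38 (SE; adjusted p = 6.17e-05), with 10.96, 10.89 and 8.90 in the other carcinomas. These genes are near-identical copies, so their probe sets may share signal.

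Nr1i3, the nuclear receptor CAR that induces Cyp2b and Cyp2c genes, read 8.43, 9.36 and 8.0 in the class, 9.88, 10.15 and 9.91 in the other carcinomas and 10.81 to 11.60 (median 10.98) in normal liver, and fell by 2.49 ± 0.29 (SE; adjusted p = 0.0016). Ahr, the receptor that induces Cyp1a genes, read 10.30, 9.54 and 10.14 against 11.37 to 11.96 (median 11.53) in normal liver and 12.48, 13.02 and 11.62 in the other carcinomas, and fell by 1.58 ± 0.20 (SE; adjusted p = 0.00244). Nr1i2, the receptor PXR, read 9.29, 9.32 and 9.06 against 9.01 to 9.48 (median 9.35) and did not pass the test. The P450s outside this pattern included Cyp3a11, which read 15.41, 15.47 and 15.35 against 15.35 to 15.58 (median 15.49). In Cyp2j5, which metabolises arachidonic acid, the class read 13.92, 11.72 and 13.85 and lay above all other carcinomas, which read 8.57, 10.40 and 10.21.

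Of 21 measured genes of bile acid synthesis and transport, 11 were lower (against 4.38% of all genes) and 0 higher in the Glul-low class (median -0.94). In the others 9 were lower (against 8.48%) and 3 higher (against 7%), with a median of -1.29. Cyp27a1 is also on the list of Wnt targets, so these counts are in part bound to the choice of the class by Glul. Cyp7a1, the rate-limiting enzyme of bile acid synthesis, read 7.10, 8.05 and 7.59 in the class against 11.22 to 13.43 (median 12.13) in normal liver and fell by 4.67 ± 0.46 (SE; adjusted p = 0.000752). The other carcinomas read 11.16, 11.35 and 7.78, so HCC 6 was as low as the members and HCC 1 and 4 were near normal liver. Cyp8b1, the enzyme that sets the share of cholic acid, fell by 4.80 ± 0.47 (SE; adjusted p = 0.000729) in the class and by 5.60 ± 0.30 (SE; adjusted p = 1.61e-05) in the others, with 8.38, 10.09 and 7.55 and 7.24, 8.58 and 7.78 against 12.91 to 13.75 (median 13.60). Cyp27a1, the mitochondrial enzyme of the alternative pathway, read 11.43, 11.68 and 11.74 against 13.58 to 13.83 (median 13.70) and fell by 2.08 ± 0.13 (SE; adjusted p = 6.17e-05), with 13.42, 13.61 and 12.52 in the others; over the mean of its probe sets its adjusted p was 0.0827. Slco1b2, an uptake carrier for bile acids and drugs, read 12.46, 10.66 and 12.19 against 14.32 to 14.95 (median 14.66) in normal liver and 14.77, 14.85 and 13.20 in the other carcinomas and fell by 2.88 ± 0.35 (SE; adjusted p = 0.00204). The exporter genes Abcc4 and Abcc2 passed the test in the other carcinomas, with differences of 3.32 and 1.09, and not in the class, with 0.98 and 0.02; whether the classes differ was not tested.

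Of 28 measured genes of fatty acid oxidation and ketogenesis, 13 were lower (against 4.38% of all genes) and 0 higher in the class (median -0.67), and 10 were lower (against 8.48%) and 0 higher in the others (median -0.55). The remaining 15 did not pass the test in the class. HCC 3 and 5 had list means of -1.12 and -1.12 and HCC 2 had -0.50. Outside the class HCC 6 had -1.06, and HCC 1 and 4 had -0.07 and -0.19. Acaa1b, a peroxisomal thiolase, read 14.32, 12.19 and 12.14 against 15.09 to 15.39 (median 15.30) and fell by 2.38 ± 0.43 (SE; adjusted p = 0.0104). Pdk4, the kinase that switches off pyruvate dehydrogenase, read 8.30, 7.13 and 7.74 in the class, 9.18 to 10.18 (median 9.51) in normal liver and 11.09, 10.78 and 9.77 in the other carcinomas, and fell by 1.88 ± 0.30 (SE; adjusted p = 0.00635). Cpt2, of mitochondrial fatty acid import, read 11.17, 10.57 and 10.57 against 11.91 to 12.45 (median 12.15) and fell by 1.37 ± 0.19 (SE; adjusted p = 0.00322). Ehhadh, a peroxisomal oxidation enzyme, read 12.33, 11.53 and 11.88 against 12.93 to 13.53 (median 13.23) and fell by 1.33 ± 0.21 (SE; adjusted p = 0.00654).

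Of 29 measured complement and coagulation factors, plasma proteins made by hepatocytes, 3 were higher (against 4.25% of all genes) and 2 lower (against 4.38%) in the class, with a median of 0.15. In the other carcinomas 1 was higher (against 7%) and 8 lower (against 8.48%), with a median of -0.12. The 2 of 29 lower in the class and the 1 of 29 higher in the others are near or under those shares. The members lay above all other carcinomas in 13 of the 29, against 8.89% of all genes, and below them in 1. C9, the pore-forming end of the complement cascade, read 14.04, 11.13 and 14.58 in the class, 13.24 to 14.62 (median 14.28) in normal liver and 10.34, 10.16 and 12.15 in the other carcinomas, so HCC 3 was below HCC 6 and the other members were near normal liver. F11, coagulation factor XI, read 12.86, 13.99 and 12.98 against 11.79 to 12.24 (median 11.93) and 11.97, 12.88 and 12.30 and rose by 1.32 ± 0.25 (SE; adjusted p = 0.0122); among arrays with Y-linked signal its adjusted p was 0.0546. Mbl2, the lectin that starts complement on sugars, fell by 0.72 ± 0.13 (SE; adjusted p = 0.0102) in the class and by 1.08 ± 0.18 (SE; adjusted p = 0.00471) in the others, with 13.98, 13.83 and 14.06 and 13.60, 14.0 and 13.20 against 14.58 to 14.81 (median 14.64).

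Of 23 measured hepatocyte transcription factors, 7 were lower (against 4.38% of all genes) and 1 higher (against 4.25%) in the class (median -0.10). In the others 4 were lower (against 8.48%) and 3 higher (against 7%). Tbx3 is also on the list of Wnt targets and Sox9 on that of periportal genes. These counts are therefore in part bound to the choice of the class by Glul. Nr1h4, the bile acid receptor FXR, read 11.10, 10.64 and 10.81 in the class, 11.56 to 12.03 (median 11.72) in normal liver and 9.66, 10.24 and 9.02 in the other carcinomas, and fell by 0.94 ± 0.17 (SE; adjusted p = 0.00993) in the class and by 2.15 ± 0.25 (SE; adjusted p = 0.00078) in the others. Hnf4a, a master factor of hepatocyte identity, read 13.28, 13.58 and 13.27 against 13.13 to 13.55 (median 13.23) and did not pass the test. Onecut2, a homeobox factor, read 6.76, 8.56 and 8.82 in the class, 9.63 to 10.89 (median 10.15) in normal liver and 10.26, 10.38 and 10.18 in the other carcinomas, and fell by 2.15 ± 0.45 (SE; adjusted p = 0.02); among arrays with Y-linked signal its adjusted p was 0.0732. Its members were the 3 lowest arrays, and the other carcinomas lay within the normal range.

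Among the gains, Krt23 stood farthest above all other arrays. Krt23, a type I keratin of epithelia that adult hepatocytes hold little of, read 10.75, 11.32 and 11.81 in the Glul-low carcinomas, 4.34, 7.27 and 7.88 in the other carcinomas and 4.44 to 7.48 (median 6.68) in normal liver. The lowest member lay 2.88 above the highest of the 9 other arrays, and the rise was 4.94 ± 0.65 (SE; adjusted p = 0.00286). The other carcinomas differed from normal liver by 0.14 (adjusted p = 0.934). Wfdc15b, a small secreted protein with a protease inhibitor fold, read 11.98, 11.69 and 12.20 against 8.12 to 9.01 (median 8.60) in normal liver and 8.08, 7.03 and 8.68 in the other carcinomas, and rose by 3.40 ± 0.22 (SE; adjusted p = 6.17e-05).

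Scel, which encodes sciellin of the cornified envelope, read 7.95, 8.04 and 8.53 in the class against 4.38 to 6.19 (median 5.17) in normal liver and 5.05, 5.86 and 6.27 in the other carcinomas, and rose by 2.94 ± 0.41 (SE; adjusted p = 0.00349). Dab1, the adaptor that carries the Reelin signal, read 9.18, 8.61 and 9.98, 5.42 to 6.64 (median 6.38) and 6.75, 4.47 and 7.37 in the same order and rose by 3.03 ± 0.34 (SE; adjusted p = 0.0014). Cxcl17, a chemokine of mucosal surfaces, read 8.08, 8.67 and 8.94 against 4.72 to 6.48 (median 5.60) and rose by 2.97 ± 0.35 (SE; adjusted p = 0.00156), with 5.45, 5.98 and 6.92 in the others. In Scel, Dab1 and Cxcl17 the other carcinomas overlapped normal liver. Lrtm2, a leucine-rich transmembrane protein, rose by 3.33 ± 0.55 (SE; adjusted p = 0.0073) to 8.25, 8.64 and 9.38 from 4.30 to 6.59 (median 5.37) in normal liver, with 5.87, 6.34 and 6.83 in the other carcinomas.

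Pkhd1, the gene of fibrocystin in the cilia of bile duct cells, read 9.99, 10.20 and 9.94 in the class, 8.01 to 8.82 (median 8.77) in normal liver and 7.11, 7.50 and 7.60 in the other carcinomas; it rose by 1.49 ± 0.22 (SE; adjusted p = 0.00528) in the class and fell by 1.15 ± 0.24 (SE; adjusted p = 0.0119) in the others. Of the duct cell markers, Krt19 read 6.53, 7.68 and 7.82 against 6.76 to 7.09 (median 6.88), Epcam read 7.54, 6.71 and 8.27 against 6.72 to 7.84 (median 7.42) and Sox9 read 7.75, 7.35 and 8.28 against 6.47 to 7.91 (median 7.52), and none of these 3 passed the test. Of 12 measured biliary and progenitor markers, 3 passed the test upward in the class (Pkhd1, Cd24a and Prom1, against 4.25% of all genes) and 0 downward. Sox9, a member of this list, is also on that of periportal genes. The call of Prom1 was lost without HCC 3, HCC 5 or normal liver 5 (adjusted p up to 0.103). Tff3, a trefoil peptide of mucus, read 14.67, 14.76 and 14.73 in the class against 13.09, 13.59 and 13.55 in the other carcinomas and a wide 5.26 to 10.22 (median 7.92) in normal liver, and rose by 6.67 ± 1.01 (SE; adjusted p = 0.00528). Pls1, an actin bundler of microvilli, read 9.62, 9.54 and 9.36 against 5.54 to 8.01 (median 7.14) and rose by 2.65 ± 0.53 (SE; adjusted p = 0.0165); its adjusted p was 0.0554 among arrays with Y-linked signal and 0.0607 without HCC 3.

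Genes of tight junctions and the epithelial skeleton were higher in 11 of 28 cases in the class (against 4.25% of all genes) and lower in 0 (median 0.43). In the other carcinomas 5 were higher (against 7%) and 3 lower (against 8.48%), with a median of 0.20. The members lay above all other carcinomas in 10 of the 28, against 8.89% of all genes. Cdh1 is also on the list of periportal genes and Cldn2 on that of Wnt targets. These counts are therefore in part bound to the choice of the class by Glul. Cdh1, the gene of E-cadherin, read 13.68, 13.30 and 13.97 against 8.04 to 9.04 (median 8.68) in normal liver and rose by 5.01 ± 0.23 (SE; adjusted p = 1.69e-05); the other carcinomas were nearly as high at 12.89, 13.07 and 13.01. Ocln, the tight junction protein occludin, read 10.22, 10.48 and 11.36 in the class, 9.24 to 9.90 (median 9.69) in normal liver and 8.73, 9.07 and 9.62 in the other carcinomas, and rose by 1.09 ± 0.27 (SE; adjusted p = 0.0364). Cldn1, a claudin, read 13.65, 12.79 and 12.96 against 12.10 to 12.51 (median 12.17) and 12.13, 12.44 and 12.06, a rise of 0.91 ± 0.20 (SE; adjusted p = 0.0244). The calls of both rested on single arrays: with 1 array left out the adjusted p reached 0.0988 for Ocln (7 of 9 arrays ended the call) and 0.051 for Cldn1 (4 of 9 arrays), and among arrays with Y-linked signal the values were 0.0998 and 0.0912. Marveld2 and Marveld3, which encode further tight junction proteins and were outside the list, read 9.69, 9.80 and 10.44 and 8.58, 7.69 and 8.76 in the class against 8.52 to 8.98 (median 8.81) and 4.41 to 7.0 (median 6.53) in normal liver. The simple keratin Krt18 read 13.47, 14.01 and 14.57 in the class and 13.90, 14.29 and 14.68 in the other carcinomas against 12.31 to 13.07 (median 12.51), and rose by 1.43 ± 0.26 (SE; adjusted p = 0.0103) and by 1.71 ± 0.22 (SE; adjusted p = 0.00145).

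Among the largest rises against normal liver, Afp, Akr1c18, Bex1 and Tspan8 were far above it in the other carcinomas too. Afp, the fetal albumin-like serum protein used as a tumour marker, read 12.76, 13.93 and 13.07 in the class, 14.83, 14.82 and 14.42 in the other carcinomas and 4.27 to 6.48 (median 5.76) in normal liver, and rose by 7.54 ± 0.47 (SE; adjusted p = 6.17e-05). Akr1c18, which inactivates progesterone, rose by 7.17 ± 0.75 (SE; adjusted p = 0.000946) in the class and by 7.37 ± 0.78 (SE; adjusted p = 0.000497) in the others, with 13.86, 12.99 and 13.62 and 14.41, 13.79 and 12.86 against 4.71 to 8.29 (median 6.16). Bex1, a small signalling adaptor, read 12.19, 14.61 and 12.68, 13.54, 13.87 and 12.91 and 5.75 to 6.43 (median 5.90) and rose by 7.14 ± 0.46 (SE; adjusted p = 6.17e-05). Tspan8, a tetraspanin of epithelial tumours, read 13.62, 14.21 and 14.22 and 13.75, 13.66 and 14.26 against 4.29 to 8.38 (median 7.12) and rose by 7.11 ± 0.75 (SE; adjusted p = 0.001). Of 18 measured fetal and oncofetal genes, 8 were higher (against 4.25% of all genes) and 0 lower (against 4.38%) in the class (median 1.19). In the others 8 were higher (against 7%) and 1 lower (against 8.48%), with a median of 1.55.

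In 5 of these 18 fetal genes, among them Afp, the class lay below all other carcinomas (against 7.65% of all genes). Gpc3, a heparan sulfate proteoglycan of fetal liver and HCC, read 11.73, 11.89 and 10.45 in the class, 13.48, 13.42 and 13.12 in the other carcinomas and 6.26 to 7.62 (median 6.93) in normal liver, and rose by 4.39 ± 0.38 (SE; adjusted p = 0.000393) and by 6.37 ± 0.28 (SE; adjusted p = 8.36e-06). Ly6d, a membrane-anchored surface protein, read 12.16, 12.06 and 11.46, 14.11, 13.51 and 14.70 and 6.70 to 7.95 (median 7.61) in the same order. Igf2, the fetal growth factor, split the class: it read 6.19, 14.32 and 6.70, so only HCC 3 was above the normal range of 6.97 to 8.02. Klrb1b, a lectin-like receptor known from natural killer cells, rose by 5.15 ± 0.42 (SE; adjusted p = 0.000275) and read 10.69, 10.56 and 9.27 against 8.46, 7.37 and 9.06 in the other carcinomas and 4.51 to 5.82 (median 4.72) in normal liver. Of 17 measured T and NK cell markers 0 passed the test in the class, and Klrb1b has close relatives whose signal its probe set may share.

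**Figure D5:**
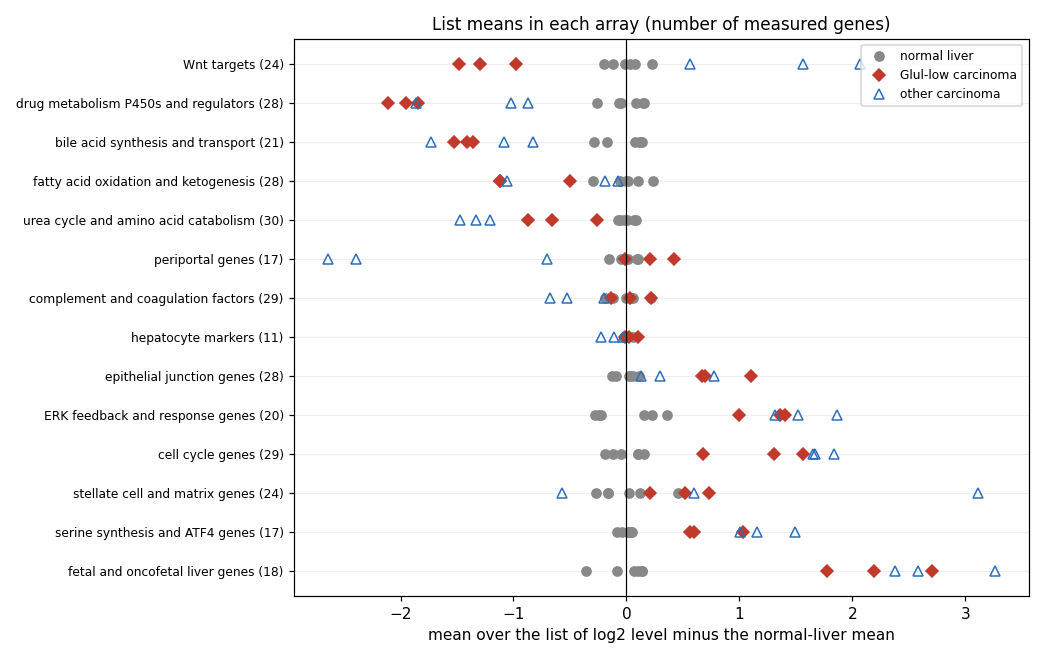
Mean over each of 14 gene lists of log2 level minus the normal-liver mean, by array; the number of measured genes is in parentheses, diamonds are Glul-low carcinomas, open triangles other carcinomas and grey points normal livers. Wnt targets, urea cycle genes, periportal genes, complement and coagulation factors and cell cycle genes separate the tumour classes without overlap. Hepatocyte markers stay near 0 in all arrays and separate the tumour classes only narrowly. HCC 6 stands alone at 3.11 in stellate cell and matrix genes.

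Feedback genes of the ERK pathway, which active MAP kinase signalling induces as its own brakes, were measured with 20 members. In the Glul-low class 8 were higher (against 4.25% of all genes) and 0 lower (median 1.08), and in the others 12 were higher (against 7%) and 0 lower (median 1.41). Dusp5, a phosphatase of nuclear ERK, read 8.82, 9.16 and 9.31 in the class, 10.01, 9.30 and 9.85 in the other carcinomas and 4.64 to 6.36 (median 5.42) in normal liver and rose by 3.62 ± 0.34 (SE; adjusted p = 0.000612). Dusp6, the phosphatase of cytosolic ERK, read 12.20, 12.26 and 11.88 in the class and 13.56, 13.07 and 13.15 in the other carcinomas against 10.35 to 11.56 (median 10.83), so it rose by 1.24 ± 0.28 (SE; adjusted p = 0.0271) and by 2.39 ± 0.29 (SE; adjusted p = 0.000941). The first of these calls was lost without any 1 member or without normal liver 2 or 4 (adjusted p up to 0.0981) and with median centring (0.0503). Spry2, an inhibitor of receptor signalling to Ras, was the one gene of the list with the class on top: 9.13, 8.98 and 9.51 against 8.51, 7.67 and 8.64 and 6.91 to 7.87 (median 7.45), a rise of 1.76 ± 0.22 (SE; adjusted p = 0.00209). The class lay below all other carcinomas in 5 of the 20, against 7.65% of all genes. Ccnd1, a member of this list, is also on that of Wnt targets.

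Of 17 measured genes of serine synthesis and the ATF4 stress response, 7 were higher (against 4.25% of all genes) and 1 lower (against 4.38%) in the class (median 0.66). In the others 9 were higher (against 7%) and 1 lower (against 8.48%). Psat1, the aminotransferase of serine synthesis, read 8.85, 9.88 and 7.41 in the class, 5.41 to 6.42 (median 5.89) in normal liver and 9.31, 9.19 and 7.78 in the other carcinomas, and rose by 2.80 ± 0.47 (SE; adjusted p = 0.00818) and by 2.85 ± 0.37 (SE; adjusted p = 0.00135).

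Of 27 measured genes of EGFR and IGF signalling, 6 were higher (against 4.25% of all genes) and 1 lower (against 4.38%) in the class. In the others 6 were higher (against 7%) and 5 lower (against 8.48%). Fgfr2, a receptor for fibroblast growth factors, read 10.47, 10.16 and 10.96 in the class, 9.05 to 9.58 (median 9.30) in normal liver and 7.92, 8.32 and 9.97 in the other carcinomas, and rose by 1.20 ± 0.20 (SE; adjusted p = 0.00779); its adjusted p was 0.0796 with the spread shared over all 3 groups and 0.0926 over the mean of its probe sets. Igfbp1, a secreted binder of insulin-like growth factors, rose by 4.54 ± 0.59 (SE; adjusted p = 0.00272) to 14.98, 15.45 and 15.0 from 9.27 to 12.25 (median 10.42) in normal liver, and the other carcinomas read 15.92, 15.92 and 15.97. Igfbp3, another such binder, read 8.14, 9.78 and 9.47 in the class, within or just outside the normal range of 8.31 to 9.74, against 12.09, 12.20 and 14.17 in the other carcinomas. Nrg1, a ligand of ErbB receptors, rose by 2.55 ± 0.50 (SE; adjusted p = 0.0149) to 8.76, 8.10 and 8.06, with 8.16, 7.53 and 7.98 in the others and 4.31 to 6.89 (median 5.87) in normal liver. Its adjusted p was 0.0619 with a pseudocount of 1, 0.0517 among arrays with Y-linked signal and 0.0513 without HCC 2.

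Of 29 measured cell cycle genes, 15 were higher (against 4.25% of all genes) and 0 lower in the class (median 1.13), and 22 were higher (against 7%) and 0 lower in the other carcinomas (median 1.94). HCC 5 had the lowest list mean at 0.68, below 1.56 and 1.30 in HCC 2 and 3 and 1.65 to 1.84 in the others. Mki67, a protein of dividing nuclei, read 9.22, 8.71 and 7.58 in the class against 9.53, 9.63 and 9.55 in the other carcinomas and 5.91 to 7.10 (median 6.64) in normal liver. Mcm6, a subunit of the replicative helicase, was even in the class at 9.52, 9.54 and 9.46 against 7.20 to 8.23 (median 7.89) and rose by 1.70 ± 0.22 (SE; adjusted p = 0.00272). Of the inhibitors, Cdkn2b (p15) rose by 4.14 ± 0.48 (SE; adjusted p = 0.00156) to 10.45, 10.50 and 10.03 from 5.01 to 7.01 (median 6.51) in normal liver, with 10.20, 8.35 and 9.99 in the other carcinomas. Cdkn1a (p21) did not pass the test: it read 9.97, 10.10 and 7.92 in the class against 8.51 to 9.88 (median 9.60) in normal liver and 11.45, 11.17 and 11.75 in the other carcinomas. Of 16 measured Cdk inhibitors and p53 targets, 4 were higher (against 4.25% of all genes) and 0 lower in the class.

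The hepcidin genes differed widely within the class. Hamp, the hormone that blocks iron export, read 10.45, 11.04 and 14.07 in HCC 2, 3 and 5 against 14.53 to 15.65 (median 15.54) in normal liver and 9.21, 8.56 and 10.45 in the other carcinomas. Hamp2, its duplicate, read 9.25, 8.29 and 12.06 against 13.70 to 15.52 (median 14.25) and 7.98, 7.26 and 8.15 in the same order and fell by 4.61 ± 0.78 (SE; adjusted p = 0.00814), and its probe set may share signal with Hamp. HCC 5 was the highest carcinoma in both. Hamp fell by 3.49 ± 0.68 (SE; adjusted p = 0.0148), and its adjusted p was 0.0665 without HCC 3 and 0.0591 among arrays with Y-linked signal. Among 17 measured iron genes, 5 were lower (against 4.38% of all genes) and 2 higher (against 4.25%) in the class. In the others 8 were lower (against 8.48%) and 0 higher (against 7%). Bmp2, the endothelial ligand that induces hepcidin, read 8.69, 7.97 and 8.56 against 9.45 to 10.36 (median 9.65) and 7.43, 7.52 and 8.01 and fell by 1.31 ± 0.24 (SE; adjusted p = 0.011).

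Among the largest falls were Mup10, Sult2a8, Serpinb1a, Ces1e and Hectd2os, of which Mup10 had the widest range in normal liver. Mup10, a male-biased urinary pheromone carrier, read 4.65, 4.26 and 7.46 against 8.70 to 12.70 (median 12.26) in normal liver and 4.57, 4.23 and 5.23 in the other carcinomas, and fell by 6.13 ± 1.0 (SE; adjusted p = 0.00698). Sult2a8, a sulfotransferase of the liver, read 10.03, 8.05 and 6.93 against 12.85 to 14.78 (median 14.43) and 8.24, 9.99 and 7.10, and fell by 5.81 ± 0.65 (SE; adjusted p = 0.00136) and by 5.70 ± 0.62 (SE; adjusted p = 0.000581). Both kept their calls among the arrays with Y-linked signal, with differences of -7.02 and -6.24. Of 17 measured male-biased genes, 3 were lower (against 4.38% of all genes) and 0 higher in the class (median -1.83). In the others 6 were lower (against 8.48%) and 0 higher (median -2.86). Normal livers 1 and 3, which lacked Y-linked signal, had list means of -2.38 and -1.86, and the other normal livers had 0.97 to 1.15. The class had -1.75, -2.59 and -1.74 and the other carcinomas -3.07, -2.67 and -3.19. The comparison with normal liver thus mixes 2 levels. Of 12 female-biased genes, 2 were higher (against 4.25%) and 1 lower (against 4.38%). Serpinb1a, an inhibitor of neutrophil proteases, read 6.21, 5.43 and 5.18 against 9.57 to 11.53 (median 10.59) and fell by 5.02 ± 0.50 (SE; adjusted p = 0.000772). Ces1e, a carboxylesterase that other family members resemble, read 10.47, 7.11 and 7.45 against 12.14 to 13.32 (median 12.73) and fell by 4.39 ± 0.65 (SE; adjusted p = 0.005) and by 5.22 ± 0.39 (SE; adjusted p = 0.000103). Hectd2os, a transcript of the strand opposite Hectd2, read 6.18, 5.29 and 6.92 against 9.95 to 11.20 (median 10.57) and fell by 4.40 ± 0.40 (SE; adjusted p = 0.000499) and by 4.39 ± 0.35 (SE; adjusted p = 0.000136).

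Markers of other liver cells were measured in the same way. Of 24 stellate cell and matrix genes, 7 were higher (against 4.25% of all genes) and 2 lower (against 4.38%) in the class. The list means were 0.21, 0.52 and 0.73 in the class, against 3.11 in HCC 6. Col4a1, a basement membrane collagen, read 11.16, 11.55 and 11.37 against 9.23 to 10.23 (median 9.54) and rose by 1.73 ± 0.23 (SE; adjusted p = 0.00296), while Dcn, the matrix proteoglycan decorin, read 10.16, 10.68 and 11.16 against 11.99 to 12.83 (median 12.43) and fell by 1.77 ± 0.26 (SE; adjusted p = 0.00441). With the spread shared over all 3 groups their adjusted p was 0.0534 and 0.22. Of 20 Kupffer and myeloid markers and 17 T and NK cell markers, 0 passed in either direction in the class, at the 1571 calls (8.64%) over all genes. Of 24 sinusoidal endothelial genes, 1 was higher (against 4.25% of all genes) and 3 lower (against 4.38%) in the class. In the other carcinomas 1 was higher (against 7%) and 8 lower (against 8.48%). The 1 of 24 higher in the class is near that share. Bmp2, given above, was among the 3 lower. The gene higher in the class was Cd34, a marker of capillary endothelium, which read 8.12, 7.61 and 8.41 against 5.77 to 6.77 (median 6.24) and rose by 1.75 ± 0.26 (SE; adjusted p = 0.005); its adjusted p was 0.0922 with the spread shared over all 3 groups. Of 13 pancreatic acinar and adipose markers, 1 was higher in the class (against 4.25% of all genes). That gene was Fabp4, with an adjusted p of 0.0541 among arrays with Y-linked signal. The acinar genes Cpa1 (4.50, 4.65 and 4.47), Cpb1 (4.45, 4.41 and 4.24) and Prss2 (4.80, 5.26 and 6.65) were within or below the range of normal liver (4.39 to 5.04, 4.33 to 4.99 and 6.34 to 7.91), beside a Spink1 level of up to 13.22. Of 12 B cell and class II genes, 2 were higher (H2-Aa and Xbp1, against 4.25% of all genes) and 1 lower (Ighm, against 4.38%). The call of H2-Aa was lost in 8 of 9 fits with 1 array left out (adjusted p up to 0.136) and that of Xbp1 in 7 (up to 0.101). Ighm lost its call over the mean of its probe sets (adjusted p = 0.564) and with the spread shared over all 3 groups (0.399), and 4 of its 10 other probe sets had the opposite sign. The part of these cells in the results was not tested.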

How the data were processed

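Total RNA of 6 carcinomas and 6 normal livers was hybridised to Affymetrix arrays, 1 colour and 1 array per sample. The authors deposited 1 linear intensity per probe set and array; the values are scaled, since each array's mean after trimming 2% at each end was 500.0, and how probes were summarised was not given in the sources used here. Of 45101 probe sets, 64 controls were left out; 34945 had 1 gene symbol, 932 several and 9160 none, and 34741 matched RefSeq. The brightest probe set stood for each of 18193 genes. Intensities plus 16 were log2-transformed and quantile-normalized, and groups were compared with limma 3.58.1 (R 4.3.3; lmFit, eBayes, Benjamini-Hochberg over all genes, threshold 0.05). Tables and plots used Python 3.11.15, pandas 2.3.3, numpy 2.4.6 and matplotlib 3.10.9.

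The members and gene lists were chosen with earlier results of these data known. Named genes were the 10 largest rises and falls past the test with groups that did not overlap and a level above the median gene, the 10 widest gaps above and below all other arrays, up to 3 genes of each of 35 lists by the size of their difference (by p where none passed), the markers Glul, Axin2, Slpi and Spink1, and Xist, Eif2s3y, Kdm5d and Uty. Tested on simulated data of this design, limma recovered 8%, 30%, 86% and 96% of 50 genes changed by 0.5, 1, 2 and 4 log2 units, with 6 false calls among 18193 genes. Alternatives were other scalings, pseudocounts of 1 and 64, leaving out genes dimmer than the median, averaging a gene's probe sets, other variance models, a stricter threshold, a replicate block, arrays with Y-linked signal only (mean level of Eif2s3y, Kdm5d and Uty above 7) and leaving out each array. Nothing is known from the labels of RNA extraction or scan batches.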

Additional observations from a re-analysis of the deposited data

Results flagged for a closer look

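Only the genes named by rule were searched for those in which the 3 Glul-low and the 3 other carcinomas lay on opposite sides of all normal livers. These were Axin2, Lhpp, Oat, Slc1a2, Hsd17b13 and Pkhd1. Genes outside those rules, such as Lect2, Lgr5 and Aldh1b1, had the same pattern. The carcinomas were split by Glul, so the difference was not tested. The Glul-low minus other HCC difference in log2 level was -4.52 for Axin2, -4.39 for Lhpp, -4.70 for Oat and -5.67 for Slc1a2. It was 3.45 for Hsd17b13 and 2.64 for Pkhd1. Glul also lay on opposite sides, by -3.24, which its use in choosing the members fixes between the carcinomas.

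In 5 of the named genes 1 normal liver stood apart from the other 5. Normal liver 5 was low in Asns at 5.59, normal liver 3 high in Bmp2 at 10.36 and normal liver 6 high in Fabp4 at 11.09. Normal liver 4 was low in Glul at 13.29, and normal liver 1 was high in Lpl at 12.05. Chance flags about 1 in 20 such groups.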

How the results depend on the processing

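The same 3 carcinomas fell under the Glul threshold on the quantile-normalized scale and with the mean of both Glul probe sets, but normal liver 4 fell under it too (13.29 and 12.64), as did normal liver 2 with the mean (13.28). All 3 members stayed below every normal liver on both scales. Every alternative kept the direction of the 100 named genes that passed the test; 75 kept their call with each array left out in turn and 77 among arrays with Y-linked signal. The counts of 774 higher and 797 lower became 257 and 254 at an adjusted p under 0.01, 499 and 492 among arrays with Y-linked signal, and ranged from 468 to 663 and 478 to 761 with 1 array left out. For the other carcinomas, 0.01 gave 510 higher and 623 lower, and leaving out 1 array gave 949 to 1157 and 1169 to 1416. The 114 genes above all other arrays became 72 with median centring and 48 at 0.01, and ranged from 85 to 228 with 1 array left out. The 110 below became 48 at 0.01 and ranged from 86 to 214 with 1 array left out. The 1617 genes above all other carcinomas and the 1392 below ranged from 1617 to 2706 and 1392 to 2648 with 1 array left out. They became 1256 and 1815 with median centring and 1554 and 1318 over the mean of all probe sets. Among genes above the median, 1107 lay above and 823 below. Among arrays with Y-linked signal, where HCC 6 alone remained for comparison, the counts were 5712 and 4914. Signs turned for Eif2s3y (-0.042) and Xist (0.86) among arrays with Y-linked signal. Of 700 recomputed list medians, 37 moved by over 1 SD of the members.

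Replicate numbers did not pair the samples: same-numbered arrays had correlations of deviations from -0.0147 to 0.0778. With the replicate block, 4 genes were higher and 2 lower in the class, 42 and 26 in the other carcinomas, and 1 and 1 beyond all other arrays, and 5 of 100 named calls remained. The cause of these shifts was not tested, apart from the settings that by construction use fewer arrays or genes. The precision is limited by 3 arrays in the class, and genes near the floor of 4 have understated differences.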

Other observations

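Of 28 measured genes of glycolysis and gluconeogenesis, 4 were lower (against 4.38% of all genes) and 1 higher (against 4.25%) in the Glul-low class. In the other carcinomas 8 were lower (against 8.48%) and 6 higher (against 7%). Pck1, a member of this list, is also on that of periportal genes. Ppp1r3c, which targets protein phosphatase to glycogen, read 11.33, 10.15 and 9.98 in the class, 12.09 to 13.36 (median 12.52) in normal liver and 13.16, 12.65 and 12.24 in the other carcinomas, so its members were the 3 lowest arrays; it fell by 2.10 ± 0.36 (SE; adjusted p = 0.00911). G6pc, the enzyme that releases glucose, read 10.93, 10.93 and 10.82 against 12.41 to 13.80 (median 13.09) and 11.24, 10.72 and 12.55 and fell by 2.20 ± 0.31 (SE; adjusted p = 0.00409). Pkm, the pyruvate kinase of non-hepatic tissue and tumours, read 8.15, 9.19 and 8.37 in the class, and the other carcinomas read 10.53, 10.65 and 12.55, all above the normal range of 6.94 to 8.65. Gsta3, a glutathione transferase, fell by 1.15 ± 0.13 (SE; adjusted p = 0.00136) to 14.03, 13.96 and 13.84 against 14.98 to 15.23 (median 15.06) in normal liver and 15.06, 15.07 and 14.57 in the other carcinomas. Of 23 glutathione transferases and NRF2 genes, 0 were higher (against 4.25% of all genes) and 2 lower (against 4.38%) in the class. In the others 6 were higher (against 7%) and 1 lower (against 8.48%). The 2 of 23 are near the share in the class. These genes were chosen after their values were seen.

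Scd2, a fatty acid desaturase of extrahepatic tissue, read 13.86, 13.27 and 12.94 in the class and 13.64, 13.20 and 13.96 in the other carcinomas against 7.91 to 9.45 (median 8.69) in normal liver, and rose by 4.69 ± 0.35 (SE; adjusted p = 0.00015) and by 4.94 ± 0.34 (SE; adjusted p = 6.1e-05). Lpl, the lipase of capillary walls, read 13.25, 14.46 and 13.74 and 14.25, 14.35 and 14.04 against 8.84 to 12.05 (median 9.76) and rose by 3.90 ± 0.63 (SE; adjusted p = 0.00697). Thrsp, a regulator of fat synthesis, fell by 2.68 ± 0.43 (SE; adjusted p = 0.0066) to 12.27, 10.21 and 11.16 from 13.40 to 14.64 (median 13.90), with 10.57, 10.89 and 10.38 in the other carcinomas. Plin5, a lipid droplet protein of oxidising cells, fell by 1.78 ± 0.25 (SE; adjusted p = 0.00349) to 9.88, 9.03 and 8.96 from 10.69 to 11.45 (median 11.09), with 10.10, 9.97 and 9.74 in the others. Of 32 measured genes of fatty acid synthesis and storage, 5 were higher (against 4.25%) and 2 lower (against 4.38%) in the class, and 6 higher (against 7%) and 7 lower (against 8.48%) in the others. Slc7a5, a carrier of large neutral amino acids, read 5.32, 5.22 and 5.12 in the class, within or near the normal range of 4.97 to 5.43, and 8.96, 8.38 and 7.51 in the other carcinomas.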
